A study of Mus musculus with 12 samples.

Results

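The 32 genes described here make, sense, take up and export cholesterol, and they were picked by symbol from the 54949 features of a count table of mouse ventricular RNA. They fall into 19 enzymes of the mevalonate and sterol pathway, 4 genes that control SREBP (sterol regulatory element-binding protein), and 9 genes of sterol uptake, intracellular transport, storage and efflux. All 32 have a row in the table, and 31 had enough reads to be tested. The study compared control mice with a model of HFpEF (heart failure with preserved ejection fraction), a failure of filling in a heart that still ejects a normal share of its blood. All mice were wild-type male C57BL/6N, entered at 8 weeks of age and were kept for 5 weeks. The model animals received dietary fat and, at 0.5 g/L in their water, L-NAME, which blocks nitric oxide synthesis. The controls had a normal diet and plain water. The atria were removed before RNA was taken. For each of the 12 samples the labels disagree. The 6 libraries named con-1 to con-6 are titled HFpEF with the diet and L-NAME as treatment, and the 6 named HF-1 to HF-6 are titled control on normal diet. For this reason the text speaks of con-named and HF-named libraries, every fold change is HF-named over con-named, and which group received the diet and L-NAME cannot be told from the labels. The authors' deposited comparison uses HF and control in the sense of the library names: for Insig1 it gives 507.02 scaled counts in HF and 309.8 in control. The labels hold 6 samples per group where the design text speaks of 5, and do not say that each came from its own mouse. The p-values thus speak only of spread among samples, which may be technical.

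Cells build cholesterol from acetyl-CoA through mevalonate, isoprenoids, squalene and lanosterol. When sterol in the endoplasmic reticulum is low, SCAP carries SREBP-2 to the Golgi, where it is cut and freed to switch on the pathway's genes. When sterol is plentiful, INSIG proteins hold SCAP back, and oxidised sterols activate the liver X receptors (LXR), which raise exporters such as ABCA1. Heart muscle burns mostly fatty acids and uses cholesterol chiefly in its membranes.

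The promoters of these genes show which of them carry letters known from sterol control. RefSeq sequences (build GRCm38.p6, 250 bases before to 50 after a gene's start) were matched by symbol for 25 of the 32 genes, with 33 promoters in all. The CCAAT box, bound by NF-Y, a partner of SREBP at sterol genes, was searched as CCAAT on both strands. It was found in 21 of the 25 genes (84.0%), against 41.1% of the 27025 genes in the same table. The sterol regulatory element was searched as TCACNCCAC on both strands and was found in 1 gene, Hmgcs1, or 4.0%, against 1.44% of all genes. With 1 mismatch allowed it was found in 12 of the 25 (48.0%), against 26.7% of all genes. A direct repeat of AGGTCA with 4 bases between, the consensus of the form LXR binds, was searched as an exact match only. It was found in none of the 25 and in 4 of 27025 genes. Forms of this repeat with mismatches were not searched. The lack of a match thus does not show that a window, such as that of Abca1, holds no LXR element. No CCAAT box was found in the windows of Abca1 and Apoe. The sequences below run 5′ to 3′ on each gene's own strand, with CCAAT boxes (CCAAT, or ATTGG on the other strand) and the sterol element in capitals. Mvk and Mvd are shown as enzymes that were lower, Insig1 and Abca1 as the 2 genes that were higher without overlap, and Hmgcs1 for its sterol element.
Mvk, chr5:114444019-114444318, plus strand: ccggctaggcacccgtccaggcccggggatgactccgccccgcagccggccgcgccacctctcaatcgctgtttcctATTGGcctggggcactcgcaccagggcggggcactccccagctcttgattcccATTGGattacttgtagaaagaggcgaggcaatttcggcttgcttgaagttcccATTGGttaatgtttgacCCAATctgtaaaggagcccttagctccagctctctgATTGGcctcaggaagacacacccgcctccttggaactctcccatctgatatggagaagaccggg
Mvd, chr8:122443373-122443672, minus strand: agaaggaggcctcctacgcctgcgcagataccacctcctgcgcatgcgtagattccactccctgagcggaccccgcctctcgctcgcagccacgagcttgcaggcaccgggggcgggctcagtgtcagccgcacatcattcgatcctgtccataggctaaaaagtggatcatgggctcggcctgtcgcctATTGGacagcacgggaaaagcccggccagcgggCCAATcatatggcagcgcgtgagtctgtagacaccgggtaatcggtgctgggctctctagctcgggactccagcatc
Insig1, chr5:28071162-28071461, plus strand: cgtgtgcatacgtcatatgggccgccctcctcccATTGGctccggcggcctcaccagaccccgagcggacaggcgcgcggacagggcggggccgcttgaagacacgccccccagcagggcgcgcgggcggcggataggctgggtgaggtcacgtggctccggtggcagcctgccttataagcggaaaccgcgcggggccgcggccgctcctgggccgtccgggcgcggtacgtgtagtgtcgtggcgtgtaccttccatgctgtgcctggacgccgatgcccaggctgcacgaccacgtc
Hmgcs1, chr13:119690101-119690400, plus strand: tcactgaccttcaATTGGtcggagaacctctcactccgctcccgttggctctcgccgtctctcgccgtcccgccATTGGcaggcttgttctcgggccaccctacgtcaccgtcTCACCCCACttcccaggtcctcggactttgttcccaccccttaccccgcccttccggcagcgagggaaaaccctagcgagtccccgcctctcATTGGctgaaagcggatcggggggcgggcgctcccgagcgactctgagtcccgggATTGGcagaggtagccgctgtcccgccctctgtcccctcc
Abca1, chr4:53159846-53160145, minus strand: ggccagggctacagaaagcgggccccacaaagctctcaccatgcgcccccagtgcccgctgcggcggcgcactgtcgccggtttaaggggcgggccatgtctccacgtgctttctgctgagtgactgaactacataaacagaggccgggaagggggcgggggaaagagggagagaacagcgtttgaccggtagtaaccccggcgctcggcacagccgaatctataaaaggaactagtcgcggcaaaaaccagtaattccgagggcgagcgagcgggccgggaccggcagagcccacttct
Mvk holds 5 CCAAT boxes between -173 and -14 from its start, Mvd 2 at -60 and -27, Insig1 1 at -216 and Hmgcs1 4, with the sterol element at -137. A match of letters describes the window and does not show that a factor binds there.

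Reads counted per gene came to between 14443186 and 22048689 per library, and 15114 features passed edgeR's filter on low counts. Levels below are CPM, counts scaled to a common library size after TMM factors, and a floor of 3 counts lay between 0.142 and 0.217 CPM. Over all features tested, 1252 were higher (8.28%) and 764 lower (5.05%) in HF-named at an adjusted p under 0.05 (edgeR's quasi-likelihood test, Benjamini-Hochberg over all tested). The groups did not overlap, with HF-named above, for 3.41% of features and, with HF-named below, for 1.95%. Mitochondrial transcripts took 21% to 24% of reads in con-named and 23.9% to 27.2% in HF-named libraries, and the TMM factors were between 1.001 and 1.091 in con-named and between 0.904 and 1.017 in HF-named. Scaling by library totals instead moved the median log2 fold change of all tested features from -0.01 to -0.13, and the split of calls from 1252 higher and 764 lower to 483 and 2582. Summed markers of cardiomyocytes stood at 74100 to 86600 CPM over all libraries, so the defining genes of heart muscle were present, while summed adipocyte markers reached at most 0.797 CPM.

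Of the 31 tested sterol genes, 3 were higher in HF-named libraries (9.68%, against 8.28% of all features) and 6 were lower (19.4%, against 5.05%), and 22 passed in neither direction. These genes share regulation and were chosen with earlier results of these data known, so the shares are a description only. The higher genes were Hsd17b7, Insig1 and Abca1, and the lower genes Mvk, Pmvk, Mvd, Srebf2, Stard4 and Apoe. Their changes ran from 0.669-fold for Stard4 to 1.63-fold for Insig1. The median log2 fold change over the 31 was -0.05, beside -0.01 over all features, with 19 genes below 0 and 12 above. Of all 15114 features tested, 7965 lay below 0 and 7149 above. The groups did not overlap for 7 genes: HF-named was wholly above con-named for 2 (Insig1 and Abca1; 6.45%, against 3.41% of all features) and wholly below for 5 (Acat2, Mvk, Pmvk, Mvd and Apoe; 16.1%, against 1.95%). Insig1, Abca1, Apoe and Mvd passed with any 1 library left out. The number of lower genes was 3 without con-named 4 or 5 or HF-named 1, 2 or 4, and 2 without HF-named 5. Over all features, the lower calls in these fits ran from 500 to 589, against 764 with all libraries. By library totals, 2 sterol genes were higher (6.45%, against 3.2% of all features in that fit) and 10 lower (32.3%, against 17.1%).

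**Figure D1:**
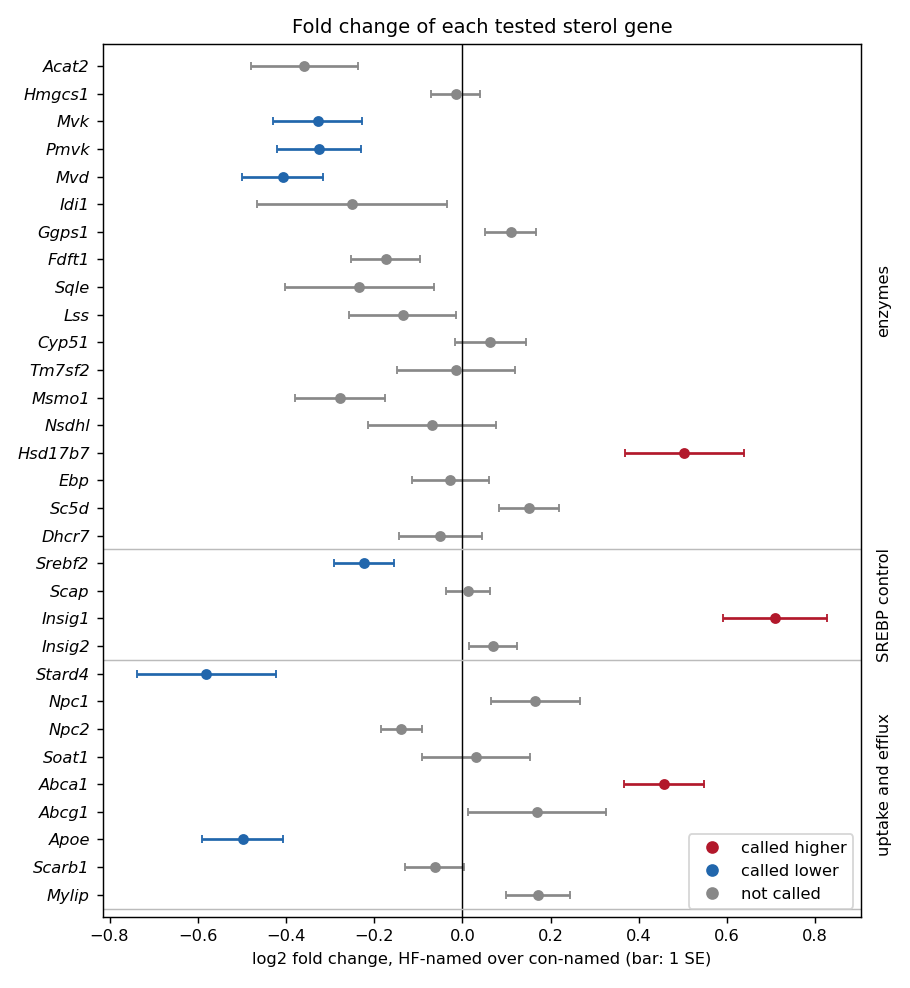
Log2 fold change of HF-named over con-named (x axis) for each of the 31 tested sterol genes (y axis), with bars of 1 SE, in red where higher, blue where lower and grey where the adjusted p did not pass 0.05. Insig1 lies farthest right at 0.71 and Stard4 farthest left at -0.58, and 14 of the 18 enzymes lie left of 0.

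Among the enzymes, 3 consecutive steps of the mevalonate pathway were lower in HF-named libraries. They are mevalonate kinase (Mvk), phosphomevalonate kinase (Pmvk) and mevalonate diphosphate decarboxylase (Mvd), which turn mevalonate into isopentenyl diphosphate, the building block of isoprenoids. Mvk (mm10 chr5:114444269-114460591, plus strand) stood at 5.61, 5.96 and 6.57 CPM as lowest, median and highest of the con-named libraries, and at 3.99, 4.87 and 5.58 in the HF-named. All 6 HF-named libraries lay below the con-named range, though the nearest pair, HF-named 2 at 5.58 and con-named 2 at 5.61, almost met. This gave a log2 fold change of -0.33 (SE 0.10, 0.797-fold, edgeR adjusted p = 0.0413), from 6.00 ± 0.380 to 4.79 ± 0.634 CPM (SD, n = 6 each).

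Pmvk (chr3:89454541-89469013, plus strand) stood at 8.68, 9.05 and 10.2 CPM in the con-named libraries and at 5.52, 7.38 and 8.35 in the HF-named. The groups did not overlap, and the lowest value was that of HF-named 1. The log2 fold change was -0.33 (SE 0.09, 0.798-fold, edgeR adjusted p = 0.0323). Mvd (chr8:122433601-122443422, minus strand) stood at 6.81, 7.21 and 8.25 CPM in the con-named libraries and at 4.89, 5.46 and 6.31 in the HF-named. Again the groups did not overlap, and con-named 6 was the highest library for all 3 enzymes. For Mvd the log2 fold change was -0.41 (SE 0.09, 0.754-fold, edgeR adjusted p = 0.0101), which passed with each library left out (adjusted p up to 0.0266). Mvk did not pass in 9 of 12 such fits (all except those without con-named 2, HF-named 2 or HF-named 3; adjusted p up to 0.0848). Pmvk did not pass without con-named 4 or 6 or HF-named 1, 2 or 5 (up to 0.0674), and without a filter on low counts neither passed (0.111 for Mvk and 0.0565 for Pmvk).

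Hsd17b7 was the 1 enzyme that rose. It encodes the 3-keto reductase that works with Nsdhl and Msmo1 in removing methyl groups from lanosterol-derived sterols, and it also reduces estrone to estradiol. Its level (chr1:169949535-169969241, minus strand) was 15.6, 16.1 and 21.7 CPM in the con-named libraries and 14.3, 25.9 and 29.0 in the HF-named. Of the HF-named, 5 exceeded every con-named one, at 24.1 to 29.0, while HF-named 1 lay below all of them at 14.3. Its log2 fold change was 0.50 (SE 0.13, 1.42-fold, edgeR adjusted p = 0.0217), and 0.62 without HF-named 1 (adjusted p = 0.00134). It did not pass without con-named 5 (0.055), without HF-named 5 (0.0558) or by library totals (0.0507). Its partners did not pass: Msmo1, the C4-methyl oxidase, had a log2 fold change of -0.28 (adjusted p = 0.0781, 4 of 6 HF-named libraries below the con-named range), and Nsdhl, the decarboxylating dehydrogenase, one of -0.07 (0.797).

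**Figure D2:**
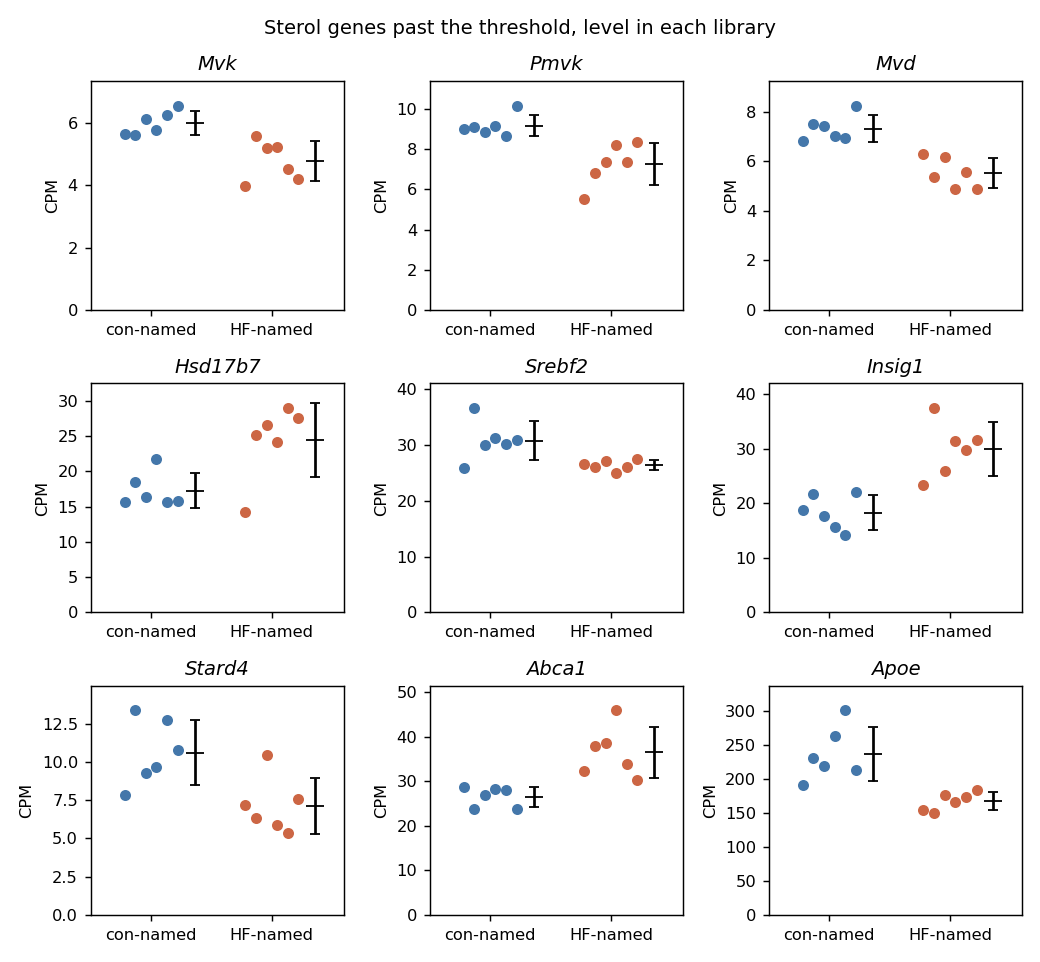
CPM in each library (points, libraries 1 to 6 from left to right in each group) for the 9 sterol genes past the threshold, with the mean and SD of each group in black and the y axis starting at 0. HF-named 1 is the low point for Hsd17b7 at 14.3 CPM, and Insig1, Abca1, Mvk, Pmvk, Mvd and Apoe show no overlap between groups.

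Acat2, Hmgcs1 and Fdft1, which act before mevalonate and at the entry to squalene, did not pass. Acat2, the cytosolic thiolase that joins 2 acetyl-CoA, had a log2 fold change of -0.36 and an adjusted p of 0.0592. Its libraries ran from 4.01 to 5.21 CPM in con-named and from 2.46 to 3.93 in HF-named, without overlap. Hmgcs1, the cytosolic HMG-CoA synthase whose promoter holds the sterol element, stood at 31.7 ± 1.89 CPM in con-named and 31.3 ± 1.85 in HF-named libraries, a log2 fold change of -0.02 (SE 0.06, adjusted p = 0.886). Fdft1, squalene synthase and the most abundant enzyme per length, stood at 52.0, 59.5 and 67.1 CPM in con-named and at 45.1, 51.9 and 60.8 in HF-named libraries. These ranges overlap, with 3 HF-named libraries below the con-named range, and the log2 fold change of Fdft1 was -0.17 (SE 0.08, 0.886-fold, edgeR adjusted p = 0.156). By library totals Acat2, Fdft1 and Msmo1 passed as lower (adjusted p of 0.0139, 0.00707 and 0.0243).

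The other enzymes had log2 fold changes between -0.25 and 0.15. Those below 0 were Idi1, the isopentenyl diphosphate isomerase (-0.25), Sqle, squalene epoxidase (-0.23), Lss, lanosterol synthase (-0.13), Dhcr7, the last reductase of the Kandutsch-Russell branch (-0.05), Ebp, the sterol isomerase (-0.03), and Tm7sf2, a C14 sterol reductase (-0.01). Those above 0 were Sc5d, lathosterol desaturase (0.15), Ggps1, which makes geranylgeranyl diphosphate for protein prenylation (0.11), and Cyp51, lanosterol demethylase (0.06), of which Ggps1 and Cyp51 lay below 0 by library totals. Their adjusted p-values lay between 0.147 for Sc5d and 0.957 for Tm7sf2. Over the 18 tested enzymes the median was -0.10, with 14 below 0 and 4 above, beside 7965 below and 7149 above over all features. For 4 of the 18 the HF-named range lay wholly below the con-named one, against 1.95% of all features. In the 6 HF-named libraries the median enzyme stood between -0.25 (HF-named 1) and 0.03 (HF-named 4) from the con-named mean on the log2 scale, and in the con-named between -0.06 and 0.05. HF-named 1 was the lowest of its group for 11 of the 31 genes, and 15 of its 18 enzymes lay below the con-named mean.

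**Figure D3:**
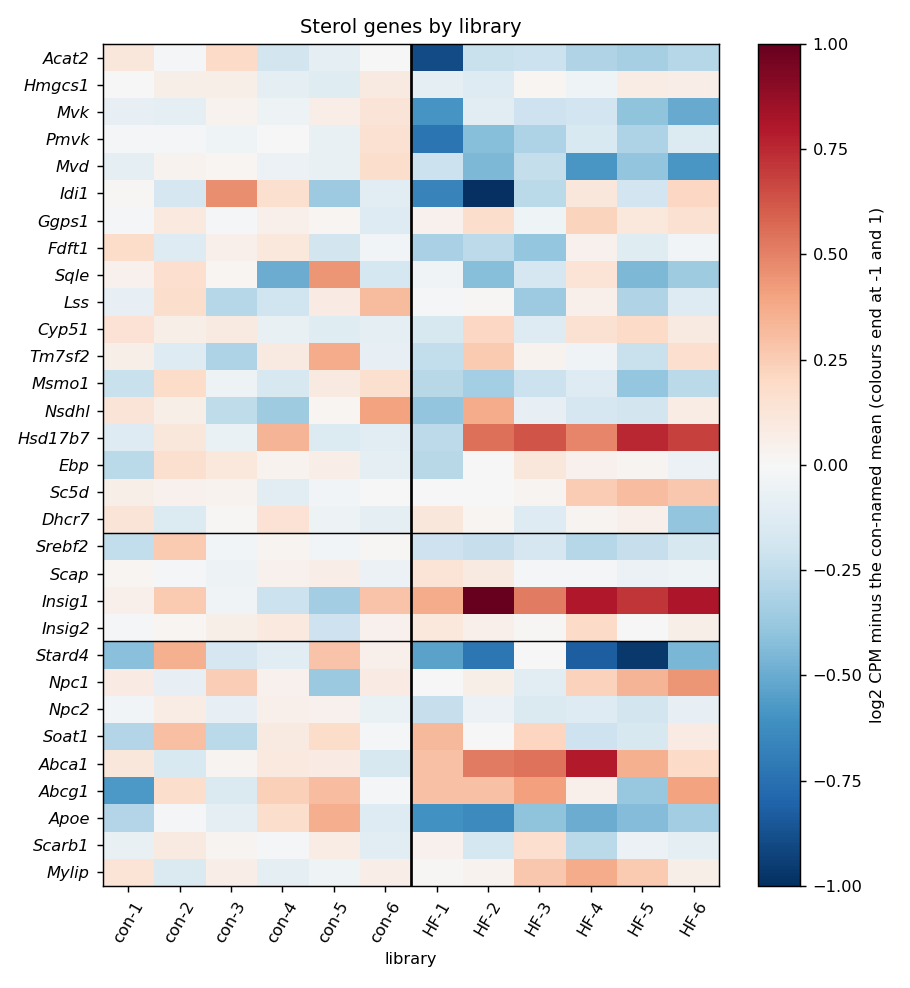
Log2 CPM of each tested sterol gene (rows; enzymes, SREBP control and uptake and efflux from top to bottom) in each library (columns) minus the con-named mean, with colours that end at -1 and 1. Insig1 and Abca1 are red in all 6 HF-named libraries, Mvd and Apoe blue in all 6, and HF-named 1 is blue for 15 of its 18 enzymes.

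Fdps, farnesyl diphosphate synthase, was too low to test. It had 1 to 10 counts per library and 63 in all, at 0.118 to 0.534 CPM in con-named and 0.0665 to 0.341 in HF-named libraries, close to the floor of 3 counts. In GENCODE M21 its longest protein-coding transcript shares 86.4% of its 50-base words with 8 other genes, of which 7 are pseudogenes. How reads that fit several places were counted is not given in the sources used here. The part of this sharing in the low count was not tested. Sharing was also high for Acat2 (45.9%), Fdft1 (30.7%) and Idi1 (30.5%), so the values of these are uncertain. Reads of overlapping genes could also mix. On the same strand, Fdps shares 26.7% of its exon bases with Gm43738 and Tm7sf2 12.1% with Vps51. On the opposite strand, Fdft1 shares 18.3% with Ctsb, Scap 13.2% with another gene and Hmgcs1 12.1% with an antisense gene. No strand setting is given for these. In the longest protein-coding transcript, sharing of 50-base words was 0% for the 9 genes past the threshold, except 2.49% for Insig1. None of the 9 shares exon bases with another gene.

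The SREBP control genes held the largest rise among the members. Insig1, which retains the SCAP and SREBP complex in the endoplasmic reticulum and is itself an SREBP target, rose 1.63-fold, while Srebf2, which encodes SREBP-2, fell to 0.857-fold. Insig1 (chr5:28071363-28078662, plus strand) stood at 14.2, 18.2 and 21.98 CPM in the con-named libraries and at 23.3, 30.6 and 37.5 in the HF-named. The groups did not overlap, and the HF-named ran from HF-named 1 as the lowest to HF-named 2 as the highest. The log2 fold change was 0.71 (SE 0.12, edgeR adjusted p = 0.00173), from 18.3 ± 3.14 to 29.9 ± 4.92 CPM (SD, n = 6 each). With each library left out it stayed between 0.63 and 0.77 (adjusted p up to 0.00545).

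Srebf2 (chr15:82147181-82205379, plus strand) stood at 25.8, 30.5 and 36.6 CPM in the con-named libraries and at 25.1, 26.3 and 27.4 in the HF-named. The HF-named libraries were close together, and 5 of the 6 lay within the con-named range, whose ends were con-named 1 and con-named 2. Srebf2 had a log2 fold change of -0.22 (SE 0.07, 0.857-fold, edgeR adjusted p = 0.0394). It was -0.17 without con-named 2 (adjusted p = 0.0634), and the gene did not pass in 9 of 12 such fits (all except those without con-named 1, HF-named 3 or HF-named 6; up to 0.0836), nor without a filter on low counts (0.0509).

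Insig2, the second INSIG and the most abundant control gene per length, stood at 42.3, 49.9 and 52.3 CPM in con-named and at 49.0, 50.7 and 55.9 in HF-named libraries. Most of these values overlap, and the log2 fold change was 0.07 (SE 0.05, 1.05-fold, edgeR adjusted p = 0.439), turning to -0.05 by library totals. Scap, the sterol sensor that escorts SREBP, had a log2 fold change of 0.01 (adjusted p = 0.889), and -0.10 by library totals. Among control genes outside the 32, Mbtps2, the site-2 protease that releases SREBP from the membrane, stood at 13.0 ± 0.720 CPM in con-named and 15.4 ± 0.760 in HF-named libraries (log2 fold change 0.25, edgeR adjusted p = 0.0143). Rnf139, an endoplasmic reticulum ubiquitin ligase of the sterol pathway, stood at 29.8 ± 1.98 and 34.3 ± 1.71 CPM (log2 fold change 0.20, edgeR adjusted p = 0.022). By library totals neither passed (0.15 for Mbtps2 and 0.259 for Rnf139). Rnf139 also did not pass without con-named 4 or 5 or HF-named 5 (up to 0.054), or without a filter on low counts (0.0556).

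In uptake, transport and efflux, the exporter Abca1 was higher, and the carrier Stard4 and the apolipoprotein Apoe were lower in HF-named libraries. Abca1, the LXR target that loads cholesterol onto apolipoprotein A-I, lies at chr4:53030787-53159895 on the minus strand. It stood at 23.7, 27.5 and 28.6 CPM in con-named and at 30.2, 35.8 and 45.9 in HF-named libraries. The HF-named range lay wholly above the con-named one, with HF-named 4 the highest. The log2 fold change was 0.46 (SE 0.09, 1.37-fold, edgeR adjusted p = 0.00475), from 26.5 ± 2.26 to 36.4 ± 5.63 CPM (SD, n = 6 each), and it passed with each library left out (up to 0.0144). Abcg1, the LXR target that exports cholesterol to HDL, had a log2 fold change of 0.17 (SE 0.16, adjusted p = 0.519). Mylip, the LXR-induced ligase that degrades lipoprotein receptors, also had one of 0.17 (SE 0.07, adjusted p = 0.125, 3 of 6 HF-named libraries above the con-named range).

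Apoe encodes the lipoprotein ligand that macrophages and other cells secrete with cholesterol (chr7:19696109-19699188, minus strand). It stood at 190.8, 224.3 and 300.5 CPM in con-named libraries and at 149.9, 169.3 and 184.0 in HF-named. The groups did not overlap, and con-named 5 was the highest. The log2 fold change was -0.50 (SE 0.09, 0.708-fold, edgeR adjusted p = 0.00325), and -0.43 without con-named 5 (adjusted p = 0.00432). In bulk tissue, fewer cells of a type and less RNA per cell cannot be told apart. Summed macrophage markers ran from 299 to 379 CPM in con-named and from 255 to 321 in HF-named libraries, with 3 of the 10 genes lower (30.0%, against 5.05% of all features) and none higher (against 8.28%). Summed fibroblast markers ran from 1490 to 1910 and from 1220 to 1490 CPM (4 of 10, or 40.0%, lower, none higher), and summed endothelial markers from 1390 to 1810 and from 1100 to 1660 (3 of 10, or 30.0%, lower, none higher). Of the cardiomyocyte markers 4 of 10 (40.0%) were lower and 1 higher, with sums of 74100 to 83100 CPM in con-named and 75900 to 86600 in HF-named libraries. No marker in these lists was at 0 in all libraries. Summed mural cell markers ran from 1290 to 1460 and from 1470 to 1670 CPM, with no single gene past the threshold among 8 tested. The part of these cell types in the fall of Apoe, or in the other changes, was not tested.

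Stard4, a soluble carrier that moves cholesterol between the plasma membrane and the endoplasmic reticulum, stood at 7.80, 10.2 and 13.4 CPM in con-named libraries and at 5.34, 6.74 and 10.5 in HF-named. Of the HF-named libraries 5 lay below the con-named range, and HF-named 3 lay within it. Stard4 had a log2 fold change of -0.58 (SE 0.16, 0.669-fold, edgeR adjusted p = 0.0233), from 10.6 ± 2.13 to 7.12 ± 1.83 CPM (SD, n = 6 each). It did not pass without con-named 5 or HF-named 2, 4 or 5 (up to 0.0577). A related carrier outside the 32, Stard3, which tethers late endosomes to the endoplasmic reticulum, stood at 28.4 ± 2.34 CPM in con-named and 22.8 ± 1.40 in HF-named libraries (log2 fold change -0.31, edgeR adjusted p = 0.00527).

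The lysosomal exit pair did not pass. Npc2, the soluble protein that hands cholesterol to NPC1, had a log2 fold change of -0.14 (adjusted p = 0.0559, 4 of 6 HF-named libraries below the con-named range) and passed by library totals (0.00753), with a filter at 1 CPM (0.0369), by DESeq2 (0.0453) and without con-named 3 (0.0468) or con-named 6 (0.0486). Npc1, the membrane partner, had one of 0.17 (adjusted p = 0.299). Soat1, which esterifies cholesterol for storage, had one of 0.03 (0.895), below 0 by library totals, and Scarb1, the HDL receptor, one of -0.06 (0.584).

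Of 42 other sterol genes, 37 were tested, and 5 were higher (13.5%, against 8.28% of all features) and 2 lower (5.41%, against 5.05%) in HF-named libraries, so the lower share was close to that of all features. By size of p these were Nceh1, Stard3, Acat1, Vldlr, Mbtps2, Rnf139 and Cav1. Of the higher genes, Acat1 and Vldlr have main roles outside sterol handling, as given below, and the share of higher genes counts them. Nceh1, a hydrolase that frees cholesterol from its esters, stood at 192 ± 19.9 CPM in con-named and 275.5 ± 33.5 in HF-named libraries, without overlap (log2 fold change 0.52, edgeR adjusted p = 0.00139). Acat1, the mitochondrial thiolase of ketone body and isoleucine use, stood at 583 ± 41.6 and 716 ± 53.3 CPM (0.30, edgeR adjusted p = 0.00642). Vldlr, a receptor for triglyceride-rich lipoproteins, stood at 397 ± 53.8 and 528 ± 68.7 CPM (0.41, edgeR adjusted p = 0.0124). These 3 genes passed by library totals too. Cav1, the coat protein of caveolae and abundant in endothelial cells, is named because it completes the 2 lower genes, after its value was seen. It stood at 274.5 ± 26.9 and 214.5 ± 48.2 CPM (-0.36, edgeR adjusted p = 0.0487), and passed in 2 of 12 fits with a library left out, those without con-named 3 (adjusted p = 0.0457) and HF-named 3 (adjusted p = 0.00186). The median log2 fold change over the 37 was -0.06. The number of higher genes was 9 without HF-named 3, and the number of lower ones was 1 without con-named 2, 4 or 5 or HF-named 1, 2, 4, 5 or 6. Over all features, 1581 were higher without HF-named 3, and between 500 and 797 were lower in the other fits named.

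Levels can be compared between genes only per length, and the deposited FPKM (fragments scaled to gene length and library total) were used for that. They are not TMM-scaled, so between groups they move with the library totals. Apoe was the most abundant sterol gene at 115.2 ± 22.6 FPKM in con-named and 75.0 ± 6.55 in HF-named libraries (SD, n = 6 each), 6.6 times the next gene over all libraries. Insig2 followed at 14.6 ± 0.860 and 14.2 ± 0.871 FPKM and Fdft1 at 14.5 ± 0.981 and 11.9 ± 1.13. Npc2, Mylip, Insig1, Hmgcs1 and Npc1 came next, with means over all libraries between 9.46 and 5.73 FPKM. The genes lower in the mevalonate pathway sat in the middle of the order, with means over all libraries of 4.81 FPKM for Pmvk, 3.48 for Mvd and 2.03 for Mvk. Below 1 FPKM were Msmo1, Soat1, Tm7sf2, Idi1, Lss, Sqle and Fdps. Neighbours in this order overlapped in their library ranges, except Apoe with Insig2 and Sqle with Fdps, where Sqle stood 5.31 times higher. Over all libraries, squalene epoxidase (Sqle, 0.385 FPKM) and lanosterol synthase (Lss, 0.439) stood far below squalene synthase (Fdft1, 13.2), the enzyme before them in the pathway. This order rests on the length used for each gene, 5546 bases for Sqle, 10787 for Lss and 4227 for Fdft1. The longest protein-coding transcript of Fdft1 also shares 30.7% of its 50-base words with other genes, so the level of Fdft1 is uncertain.

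**Figure D4:**
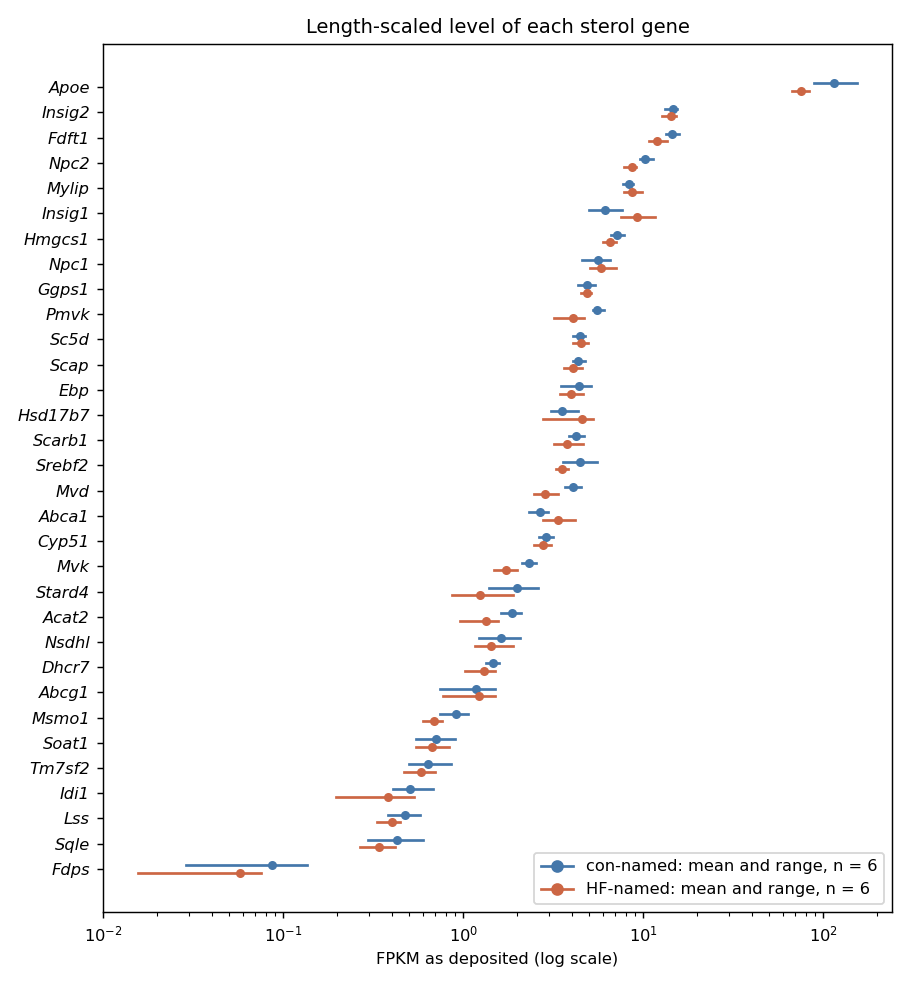
Deposited FPKM (x axis, log scale) of the 32 sterol genes (y axis, ordered by the mean over all libraries), with the mean as a point and the range of the 6 libraries as a line, con-named in blue and HF-named in orange. Apoe stands alone at the top and Fdps alone at the bottom, and the other neighbours overlap.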

How the data were processed

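RNA of 12 mouse ventricle libraries was poly-A-selected, by a protocol that names no step marking strand, per the labels' protocols. Raw read counts and FPKM were deposited for each library and gene. The submitters' processing notes name cutadapt 1.15, HISAT2 2.0.5, HTSeq 0.9.1 and build mm10. The annotation release and strand setting were not given in the sources used here, so genes overlapping on opposite strands are uncertain. The deposited FPKM equal counts divided by 1 length per gene and the library total for 100% of 17926 genes (within 1%). For 29 of the 32 sterol genes that length is the union of exons in GENCODE M21. A deposited comparison by the authors holds mean scaled counts of each group (a signal), log2 fold changes and p-values, used only where named. It puts 7 sterol genes under an adjusted p of 0.05, 3 higher and 4 lower. Mvk and Srebf2 are not among them, with adjusted p-values of 0.0919 and 0.0725 in the authors' comparison. The share of all features under 0.05 in that comparison is not given here.

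The library name in the description label grouped the samples and matched the columns. Within a group, libraries differed by more than sampling noise (chi-square over its degrees of freedom 4.02 to 16.3 in 30 pairs), so none looked like a repeat deposit of another. This does not show that they came from separate mice. Counts passing filterByExpr (15114 features) were scaled by TMM, and a two-sided quasi-likelihood test was fitted in edgeR 4.0.16 (limma 3.58.1, R 4.3.3) on group alone, adjusted by Benjamini-Hochberg over all features at 0.05. Every adjusted p is from this edgeR fit unless another is named. The steps were tested on simulated data first.

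The members and lists were chosen with earlier results of these data known. Named were all 32 members, with levels for those past the threshold and the most abundant of each subset, and up to 6 genes past the threshold, by smallest p, from the other sterol genes and from a fatty acid synthesis list. Alternatives were RLE factors, library totals, no filter, a filter of 1 CPM in at least 6 libraries, a block for the replicate number, limma-voom, DESeq2 1.42.0, and each library left out in turn. A fit without mitochondrial transcripts was chosen after seeing the data, as was the use of these settings for the fatty acid list. Heat-map values are log2 of the CPM with no prior count. A prior count of 2 was used where deviations of same-numbered libraries were correlated. Some results are not reported here.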

Additional observations from a re-analysis of the deposited data

Results flagged for a closer look

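In each group of 6 libraries, the highest and lowest value of every tested sterol gene and of 12 other named genes was compared with its nearest neighbour by Dixon's test, in 86 sets of values in all. A library stood apart in 4 of them. Chance flags about 1 in 20, so this number was close to what chance alone would give. Acat2 stood at 2.46 CPM in HF-named 1, with the nearest library at 3.63 and the highest at 3.93. Without HF-named 1 its log2 fold change was -0.28 (edgeR adjusted p = 0.0988). Hsd17b7 stood at 14.3 CPM in the same library, with the nearest at 24.1 and the highest at 29.0. Pmvk stood at 10.2 CPM in con-named 6, with the nearest library at 9.14 and the lowest at 8.68, and its log2 fold change without con-named 6 was -0.30 (edgeR adjusted p = 0.0629). Insig2 stood at 42.3 CPM in con-named 5, with the nearest library at 48.6 and the highest at 52.3, and its log2 fold change without con-named 5 was 0.02 (edgeR adjusted p = 0.843).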

How the results depend on the processing

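Over 20 alternatives, 553 of 620 values of sterol genes kept their direction and side of the threshold, 37 were lost, 9 gained and 21 turned in sign. None of those that turned was among the 9 genes past the threshold. All 37 losses fell on these 9 genes, since only they could be lost. The number of the 9 kept ran from 4, without HF-named 5, to all 9. RLE factors, limma-voom and a fit without mitochondrial transcripts called the same 9 sterol genes. By library totals, 483 features were higher and 2582 lower, 10 sterol genes were lower, 3 of the other sterol genes were higher and 8 lower, and the median of the sterol genes was -0.17 (-0.165). There Ggps1 turned to -0.00883, Cyp51 to -0.06 (-0.0552), Scap to -0.10, Insig2 to -0.05 (-0.0452) and Soat1 to -0.08 (-0.0846). Without a filter, which tests more features, 3 sterol genes were lower, beside 600 of all features. Of the other sterol genes, 1 was lower with RLE factors, 4 with a filter of 1 CPM and 4 by DESeq2. Over all features 756, 896 and 874 were lower in these fits. With 1 mismatch, the sterol element was in 48.0% of the 25 sterol genes with a promoter, against 26.7% of all genes. For these changes the cause was not tested. With a replicate block, 748 features were higher and 383 lower, 2 sterol genes and 1 other sterol gene were lower, and 1 fatty acid synthesis gene passed. The block lost Mvk (adjusted p = 0.0907), Pmvk (0.0505), Srebf2 (0.0764) and Stard4 (0.0541), and outside the 32 Mbtps2 (0.0533), Cav1 (0.0789), Acacb (0.0547), Acly (0.0571) and Lpcat3 (0.0547). Deviations of libraries of the same number had correlations from -0.161 to 0.09. Con-named 4 and con-named 6 were closest to the HF-named library of their own number, and the other con-named libraries were not. This does not show whether samples of the same number shared a batch, which the labels do not give.

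Leaving out each library in turn, features higher ran from 836 to 1581 and lower from 500 to 969 (500 without HF-named 4), sterol genes higher from 2 to 3 and lower from 2 to 6, other sterol genes higher from 4 to 9 and lower from 1 to 3, fatty acid synthesis genes from 2 to 3, and the median of sterol genes from -0.0619 to -0.027. The genes whose sign turned were Soat1 (-0.027 to 0.091), Tm7sf2 (-0.0671 to 0.0587), Nsdhl (-0.161 to 0.00879), Scap (-0.0117 to 0.0258), Hmgcs1 (-0.0495 to 0.00646), Ebp (-0.0776 to 0.0176) and Dhcr7 (-0.0872 to 0.0157). Depth limits the lowest members most: a floor of 3 counts lay between 0.142 and 0.217 CPM, near the level of Fdps.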

Other observations

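Fatty acid synthesis, the other pathway under SREBP, was set beside the sterol genes with a list of 13 genes, all tested. In HF-named libraries 2 were higher (15.4%, against 8.28% of all features) and 1 lower (7.69%, against 5.05%). Me1, malic enzyme, which supplies NADPH, stood at 124.8 ± 14.43 CPM in con-named and 179 ± 11.7 in HF-named libraries, without overlap (log2 fold change 0.52, edgeR adjusted p = 0.000669). Acacb, the acetyl-CoA carboxylase of the mitochondrial surface, stood at 461 ± 45.1 and 584 ± 67.0 CPM (0.34, edgeR adjusted p = 0.012). Acly, which makes cytosolic acetyl-CoA from citrate, stood at 42.5 ± 4.15 and 35.5 ± 3.62 CPM (-0.26, edgeR adjusted p = 0.0298). It did not pass without con-named 2 or 3 or HF-named 2, 4 or 5 (up to 0.0699). The median of the 13 was -0.05, with 9 genes below 0 and 4 above, beside 7965 below and 7149 above over all features.

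The 2 genes that follow were chosen after their values were seen. Tmem97, an NPC1-binding protein, stood at 4.77 ± 0.494 CPM in con-named and 3.44 ± 0.361 in HF-named libraries (log2 fold change -0.47, edgeR adjusted p = 0.0123). Lpcat3, an LXR target that remodels phospholipids, stood at 32.9 ± 3.52 and 39.8 ± 3.52 CPM (0.28, edgeR adjusted p = 0.0228), and did not pass by library totals (0.0873) or without con-named 5 or HF-named 4 or 5 (up to 0.057).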
